A study of Drosophila melanogaster with 12 samples.

Results

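The genes described here encode the voltage-gated and potassium channels of the fly: the sodium, calcium and potassium channel pores, the NALCN and tandem-pore leak channels, and the subunits that travel with them. They were taken by FlyBase symbol from a list of 34, and 33 of them had a summed count of at least 10 over the libraries, out of 12433 genes that passed this minimum and 17730 in the counts table. The one that did not pass was Teh3, an auxiliary subunit of the sodium channel, with 0 counts in every library; its gene body lies wholly inside Teh2 on the same strand, and read pairs that overlap more than one gene were not counted, so that nothing can be said of its level. RNA was from pooled heads of 1-day-old Drosophila melanogaster adults, males and females in an equal ratio, with 3 biological replicates in each of 4 groups and 12 libraries in all. In control flies, the dTet-Gal4 driver was present on the w1118 background with no transgene. The mTET2-wt, mTET2-R43G and mTET2-R1261C flies carried the same driver and a Flag-tagged mouse TET2 transgene under UAS, unchanged, with the N-terminal R43G mutation or with the R1261C mutation of the catalytic domain. The driver acts in cells that express dTet, and the transgene was placed at one landing site on chromosome arm 2R. All transgenes were made in a landing-site fly line, whereas the control cross used w1118. Control flies thus lacked the insertion, the foreign protein and the genome of that line, so that these parts of a difference from control cannot be told apart.

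Neurons fire because voltage-gated sodium and calcium channels let positive charge in and potassium channels let it out again. Sodium and Shaker-type potassium channels shape the action potential, the presynaptic calcium channel triggers transmitter release, and calcium-activated potassium channels end bursts of firing. Leak channels are open near rest and set how far a neuron sits from its firing threshold: the NALCN channel carries sodium inward, and tandem-pore potassium channels carry potassium outward. In the fly, several of these genes were found as mutants that shake, become paralysed when warmed, or sleep too little.

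Libraries held between 15894383 and 19434046 counted read pairs. Of these, 0.712% to 1.06% fell on the 33 channel genes. Levels are given as CPM, the counts of a gene scaled to a common library size with TMM factors. Summed neuronal markers (6 of 7 genes with counts, Syx1A at 0) were between 4988 and 6234 CPM in all libraries, and photoreceptor markers (12 of 12) between 29511 and 41207 CPM, so that the tissue was that of a head. Glial markers (5 of 6, alrm at 0) spanned 1743 to 2108 CPM in control, 1516 to 1608 in mTET2-wt, 1439 to 1598 in mTET2-R43G and 1554 to 1809 in mTET2-R1261C. Yolk protein genes, which mark females, ranged from 9203 to 45955 CPM, highest in control replicate 3, the roX RNAs of males from 389 to 1631 CPM, and digestive enzymes of the midgut reached 2356 CPM in mTET2-wt replicate 3 against at most 362 in the other libraries. Muscle, fat body and haemocyte markers, all with counts, spanned 11795 to 20914, 13146 to 31975 and 472 to 744 CPM. In heads, fewer cells of a type and less RNA per cell cannot be told apart. In adult brains, the paper counted more Repo-positive glia for mTET2-wt and mTET2-R43G than for control. It found no such increase for mTET2-R1261C.

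Counts cover the whole gene body, introns included, and channel genes are long. The 33 ran from 1.97 kb (Task7) to 138.9 kb (Sh), with a median of 17.7 kb against 2.36 kb for all genes tested, and 16 of them exceeded 20 kb, a length passed by 8.10% of all genes tested. Per kb of counted gene, the highest levels in control heads were those of unc79, at 26.4 ± 2.14 CPM per kb (SD, n = 3), and unc80, at 25.7 ± 2.43, a pair of large proteins that hold the NALCN channel together. Its pore gene na stood at 13.8 ± 1.96 CPM per kb. Next came Teh2 at 20.04 ± 1.99, stj, the alpha2delta subunit of calcium channels, at 18.7 ± 1.45, and Ih, the hyperpolarization-activated cation channel, at 18.1 ± 0.620. Of the 32 pairs of neighbours in this order, 24 overlapped within 1 SD, as unc79 and unc80 did. The lowest were Irk1 at 0.386 ± 0.0274, tipE at 1.34 ± 0.0403 and Teh1 at 1.81 ± 0.120 CPM per kb. The counted length includes introns, and its exonic share was 66.2% for unc79, 70.1% for unc80, 77.2% for tipE and 10.8% for Teh1. The order is therefore one per kb of gene body, and not one of mRNA per kb of exon. Of Irk1 67.9% and of tipE 84.5% lies under another gene on the same strand, where reads could not be assigned, and so their levels are too low by an unknown amount. SLO2 (9.96%), KCNQ (6.49%) and Teh2 (31.7%) were touched in the same way.

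**Figure D1:**
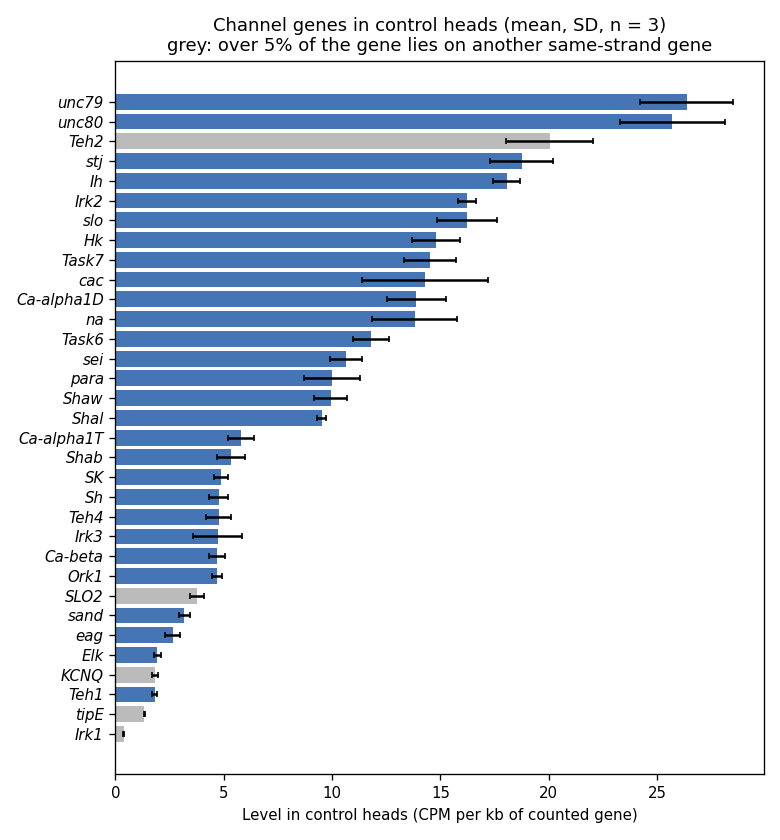
Mean level in the 3 control libraries (bars, CPM per kb of counted gene; lines, SD) of the 33 channel genes in descending order, with grey bars for genes that share over 5% of their length with another same-strand gene. The NALCN partners unc79 and unc80 were at the top at 26.4 and 25.7, and Irk1 was at the bottom at 0.386. The counted length includes introns, so that the order is not one of mRNA per kb of exon.

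The clearest difference between mTET2 flies and control was in a pair of leak channels, Ork1 and sand. Ork1 encodes the open rectifier, a tandem-pore potassium channel whose background current lowers the firing of neurons and of heart muscle cells; it lies on the X chromosome at chrX:10878054-10891250 (minus strand, dm6). Control libraries held 58.5, 62.9 and 64.5 CPM of Ork1, mTET2-wt libraries 34.5, 36.1 and 38.2, mTET2-R43G libraries 38.6, 26.9 and 32.1, and mTET2-R1261C libraries 30.2, 30.9 and 38.1. Every mTET2 library was thus below every control library, and the mTET2 groups overlapped one another. Of all 12433 genes tested, 426 were below control in this way and 292 above, together 5.77%. Among the channel genes, 2 of 33 were below and 0 above. Group means were 62.0 ± 3.11 CPM in control (SD, n = 3 in each), 36.2 ± 1.83 for mTET2-wt, 32.6 ± 5.83 for mTET2-R43G and 33.1 ± 4.39 for mTET2-R1261C, that is 58.5%, 52.5% and 53.4% of control. The log2 fold change against control was -0.77 ± 0.13 (SE; adjusted p = 0.00833) for mTET2-wt, -0.93 ± 0.13 (adjusted p = 0.00278) for mTET2-R43G and -0.90 ± 0.13 (adjusted p = 0.00354) for mTET2-R1261C.

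The other one, sand (sandman, chr2R:8091696-8096948, plus strand), encodes a tandem-pore potassium channel known from sleep-promoting neurons of the fly brain, where its arrival at the membrane silences the cells. Its level was 18.0, 16.8 and 15.2 CPM in control, 12.4, 11.2 and 9.54 for mTET2-wt, 12.9, 12.1 and 11.02 for mTET2-R43G, and 10.8, 10.2 and 11.1 for mTET2-R1261C. These levels rest on few counts, 2655 summed over all libraries. Again the mTET2 libraries lay below the control libraries without overlap, and the mTET2 groups overlapped one another. The mean fell from 16.7 ± 1.39 CPM to 11.04 ± 1.44 in mTET2-wt (log2 fold change -0.60 ± 0.11, adjusted p = 0.0155), to 12.0 ± 0.937 in mTET2-R43G (-0.47 ± 0.11, adjusted p = 0.0359) and to 10.7 ± 0.438 in mTET2-R1261C (-0.64 ± 0.11, adjusted p = 0.0136). Beyond the tandem-pore genes, no channel gene was called in the tests of mTET2-wt or mTET2-R1261C.

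**Figure D2:**
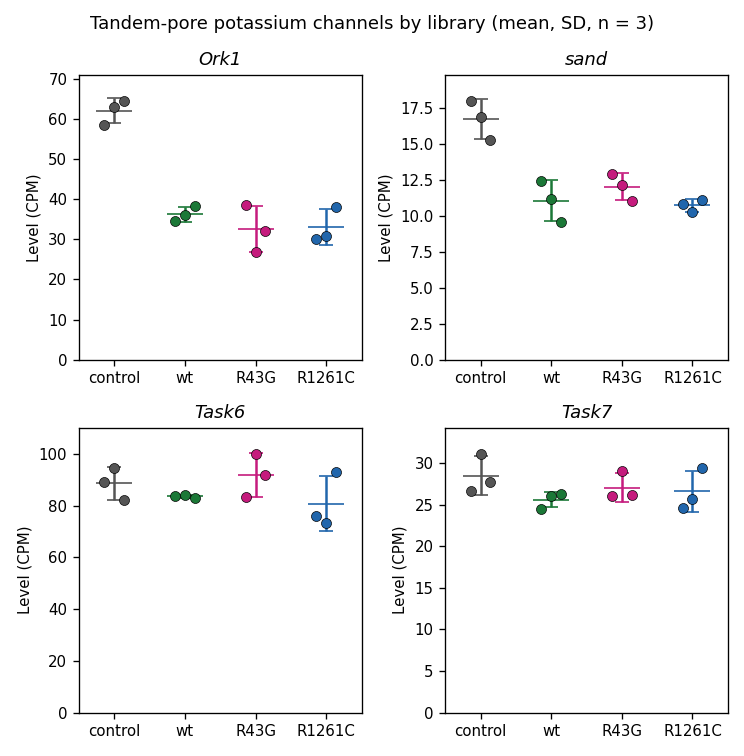
Levels (CPM) of the tandem-pore potassium channels by library, with points for the 3 replicates of each group, a bar for the mean and lines for the SD. Ork1 and sand were lower in all mTET2 libraries than in all control libraries, with Ork1 at 58.5 to 64.5 CPM in control and at most 38.6 elsewhere, while the ranges of Task6 overlapped between all groups.

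The remaining members of this family did not share that pattern. Task6 measured 88.5 ± 6.27 CPM in control, 83.6 ± 0.478 for mTET2-wt, 91.8 ± 8.45 for mTET2-R43G and 80.7 ± 10.6 for mTET2-R1261C, and Task7 28.5 ± 2.37, 25.6 ± 0.921, 27.1 ± 1.71 and 26.6 ± 2.47, the mTET2-wt libraries of Task7 (24.5 to 26.2 CPM) being just under its control libraries (26.6 to 31.2). Both genes encode leak channels. The 95% intervals of their log2 fold changes against control lay between -0.35 and 0.27, which leaves room for a small change but not for one of the size of Ork1. Of the tandem-pore genes outside the 34 that had been listed beside them, CG42340 and CG42594 went the other way in mTET2-R43G, with log2 fold changes of 0.41 ± 0.09 (adjusted p = 0.0281) and 0.43 ± 0.11 (adjusted p = 0.0448). Both were also above all control libraries in mTET2-wt, at 0.26 (adjusted p = 0.179) and 0.24 (adjusted p = 0.336). CG1688, CG34396 and CG43155 were not called in mTET2-R43G, at 0.20, 0.04 and 0.30 (adjusted p = 0.163, 0.923 and 0.390).

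In the model over all 4 groups, Ork1 (adjusted p = 0.00351) and sand (adjusted p = 0.0189) were the channel genes that differed, 2 of 33 beside 2.66% of all genes tested. With the mTET2 groups averaged and set against control, the log2 fold change of Ork1 was -0.87 ± 0.10 (adjusted p = 5.12e-04) and that of sand -0.57 ± 0.09 (adjusted p = 0.00341). These 2 of 33 stand beside 3.96% of all genes. KCNQ came next in this test, at 0.29 ± 0.08 (adjusted p = 0.0581). It was called there with DESeq2, with no filter and with filterByExpr, but not with RLE factors, a replicate block or no ribosomal RNA genes. Between mTET2 groups, the intervals of the difference ran from -0.43 to 0.30 for Ork1 and from -0.41 to 0.36 for sand on the log2 scale, so that differences of that size between the transgenes cannot be told from none. Glial markers, given above, were lower without overlap in mTET2-wt and mTET2-R43G than in control and overlapped with control in mTET2-R1261C, and their part in the Ork1 and sand results was not tested. Among neighbouring genes, of 9 others tested within 25 kb of Ork1 the lowest adjusted p in any comparison with control was 0.146, and of 12 near sand, Vps28 was lower in mTET2-R43G (log2 fold change -0.40, adjusted p = 0.0169) and sut1 higher in mTET2-R1261C (1.12, adjusted p = 0.0201). Both were also called with the mTET2 groups averaged, Vps28 at -0.28 (adjusted p = 0.0279) and sut1 at 0.74 (adjusted p = 0.0368). Ork1 kept its call when any library was left out. Calls of sand were lost in mTET2-wt without control replicate 1 or 2 or mTET2-wt replicate 2 or 3 (adjusted p from 0.0605 to 0.0665), in mTET2-R1261C without control replicate 1 or 2 or mTET2-R1261C replicate 1 or 2 (0.0546 to 0.0613), and in mTET2-R43G without any one library but mTET2-R43G replicate 1 (0.0564 to 0.106). Over the 4 groups sand was lost without control replicate 1 (0.0918) or 2 (0.0955). Its log2 fold changes in these fits stayed between -0.70 and -0.41.

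Over the whole set, mTET2-wt had 2 of 33 channel genes called and mTET2-R1261C 2 of 33, beside 2.24% and 1.49% of all genes tested, and mTET2-R43G 8 of 33, beside 4.33%. Called here means an adjusted p of at most 0.05 with no minimum fold change, since most differences were small. With the added threshold that the study set for DEGs, a log2 fold change of 1 or more in size, 0 channel genes were DEGs in any comparison with edgeR and 0 with DESeq2, while all genes had a share of DEGs of 1.20% for mTET2-wt, 1.34% for mTET2-R43G, 0.748% for mTET2-R1261C and 1.34% for their mean against control. Unadjusted p-values were under 0.05 for 5 of the 33 with mTET2-wt, 20 with mTET2-R43G and 3 with mTET2-R1261C, beside 14.7%, 23.0% and 11.8% of all genes tested. Ork1 stood near the limit, and was a DEG without mTET2-R43G replicate 1 in that group (-1.07) and likewise without mTET2-R1261C replicate 3 (-1.02).

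**Figure D3:**
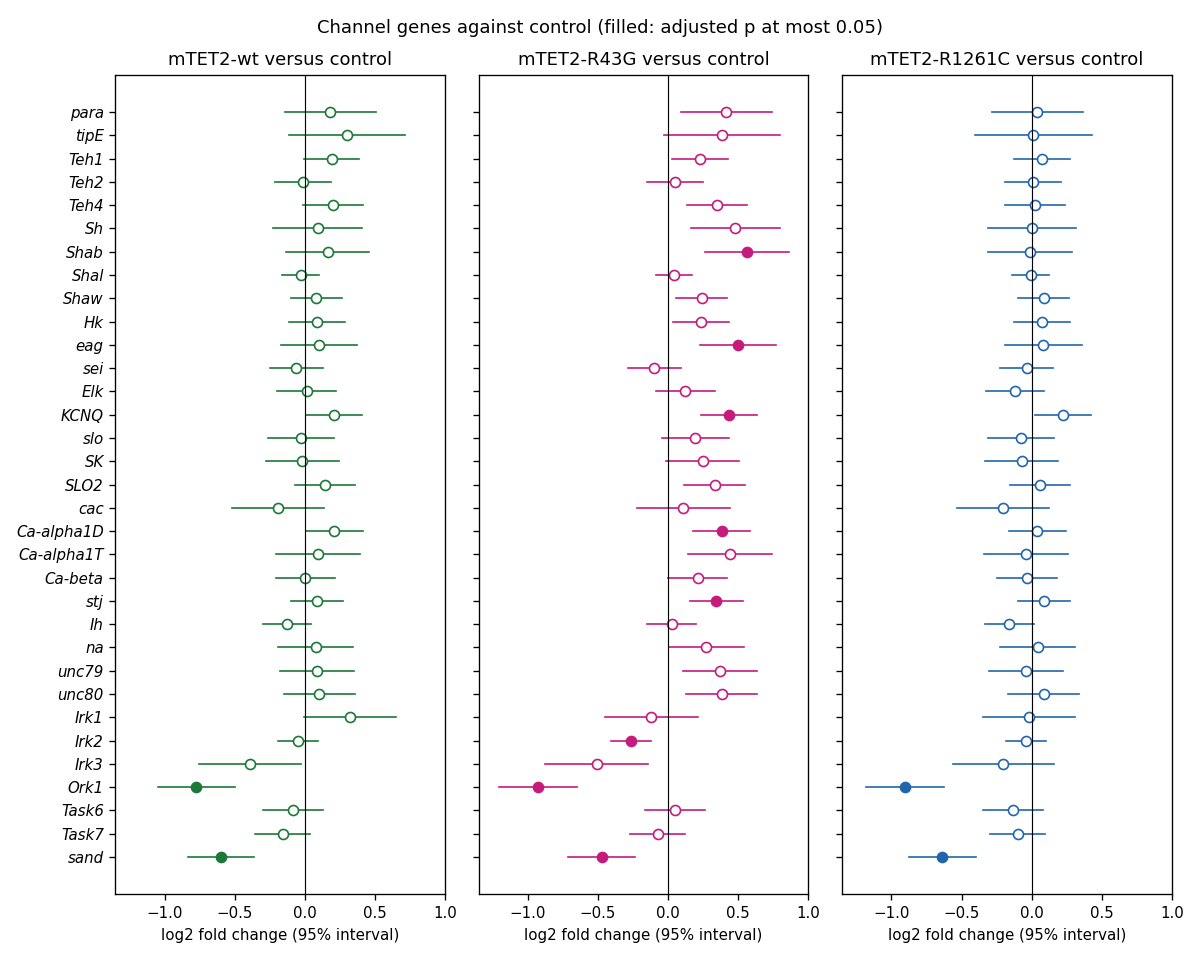
Log2 fold change against control (points) with its 95% interval (lines) of the 33 channel genes, with 1 panel for each mTET2 group and genes ordered by class from sodium channel to tandem-pore channels. Filled points passed an adjusted p of 0.05: Ork1 and sand in each panel, and 6 more genes in mTET2-R43G.

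In mTET2-R43G heads, most channel genes had values above control. Of the 33, 26 had a log2 fold change above 0, as did 48.0% of all genes tested, the median was 0.24 against -0.01 for all genes tested, and 5 rose and 3 fell by the test. All libraries were above all control libraries for 18 channel genes, beside 12.9% of all genes, and below for 3, beside 13.7%. Of the 1007 tested genes over 20 kb, 499 were above in this way and 13 below. In mTET2-wt the median was 0.08 and 4 genes were separated upwards and 4 downwards (11.7% and 11.7% of all genes). In mTET2-R1261C the median was -0.01, and 0 were separated upwards and 3 downwards (6.87% and 8.48% of all genes). The comparisons with control share their control libraries.

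Among the potassium channels that rose in mTET2-R43G, Shab, the delayed rectifier that repolarizes neurons and muscle, had 392, 318 and 321 CPM in control and 449, 519 and 555 in mTET2-R43G, with no overlap. Its log2 fold change was 0.56 ± 0.14 (adjusted p = 0.0434), the largest rise among the channel genes. In mTET2-wt Shab measured 401, 399 and 355 CPM and in mTET2-R1261C 379, 267 and 377. The ether-a-go-go channel gene eag, named after the leg shaking of its mutants, went from 164, 141 and 126 CPM in control to 186, 221 and 203 in mTET2-R43G (0.50 ± 0.12, adjusted p = 0.0461), and it had 148, 161 and 154 CPM in mTET2-wt and 168, 123 and 166 in mTET2-R1261C. KCNQ, the gene of the slow M-type current, went from 89.8, 86.7 and 77.1 CPM to 102, 122 and 119 (0.44 ± 0.09, adjusted p = 0.0255). With 97.6, 97.4 and 98.5 CPM in mTET2-wt, all above control, KCNQ had a log2 fold change of 0.21 ± 0.09 there (adjusted p = 0.310), and with 107, 87.6 and 102 CPM in mTET2-R1261C one of 0.23 ± 0.09 (adjusted p = 0.340).

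Among calcium channel genes, a pore and an auxiliary subunit rose in mTET2-R43G. Ca-alpha1D, the pore of the L-type channel of neurons and muscle, had 381, 328 and 319 CPM in control, 393, 417 and 380.2 for mTET2-wt, 417, 482 and 441 for mTET2-R43G and 346, 319.5 and 392 for mTET2-R1261C. The 3 mTET2-R43G libraries were above the controls (0.38 ± 0.09, adjusted p = 0.0440). Its companion stj (straightjacket), which carries calcium channels to the membrane, had 273, 266 and 236 CPM in control, 275, 279 and 270.2 for mTET2-wt, 318, 337 and 328 for mTET2-R43G and 268, 244 and 310.4 for mTET2-R1261C. Its level in mTET2-R43G was above every other library (0.34 ± 0.09 against control, adjusted p = 0.0455). The gene that fell in mTET2-R43G besides Ork1 and sand was Irk2, an inward rectifier, with 93.2, 93.4 and 97.4 CPM in control and 72.5, 82.9 and 80.4 in mTET2-R43G (-0.27 ± 0.07, adjusted p = 0.0434), against 93.2, 92.8 and 88.6 in mTET2-wt and 87.7, 93.8 and 94.7 in mTET2-R1261C.

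**Figure D4:**
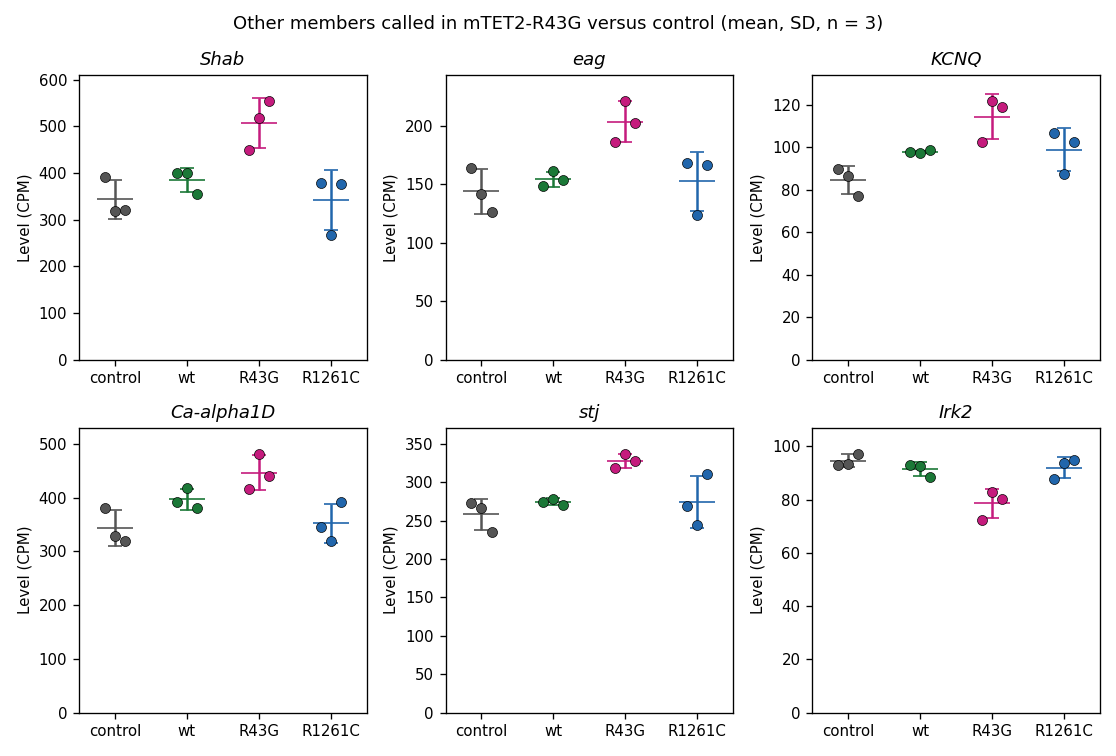
Levels (CPM) by library of the 6 channel genes other than Ork1 and sand that were called in mTET2-R43G against control; points are the 3 replicates of each group, bars the mean and lines the SD. Shab, eag, KCNQ, Ca-alpha1D and stj were highest in mTET2-R43G, and Irk2 was lowest there, at 72.5 to 82.9 CPM.

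These mTET2-R43G calls were not stable when a library was left out. The 8 calls became 1 (Ork1) without control replicate 3, without mTET2-R43G replicate 2 or without mTET2-R43G replicate 3, 2 without control replicate 2 (Ork1 and Teh4), 5 without mTET2-R43G replicate 1 and 6 without control replicate 1. Calls over all genes fell as well, from 538 to 173, 173, 357, 179, 436 and 493 in the order of these fits. The log2 fold changes kept their sign in these fits, with Shab between 0.49 and 0.67, eag between 0.41 and 0.60, KCNQ between 0.37 and 0.51, Ca-alpha1D between 0.32 and 0.46, stj between 0.28 and 0.39 and Irk2 between -0.31 and -0.21. With only the 6 libraries of the comparison in the fit, Ork1 alone was called, beside 194 of the 12420 genes tested there. DESeq2 called 15 channel genes in this comparison, beside 10.4% of the genes it gave an adjusted p, and 11 over the 4 groups, beside 8.85%.

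Most of the remaining voltage-gated genes also had higher values than control in mTET2-R43G, without passing the test. The sodium channel para, through which fly neurons fire action potentials, had 882, 777 and 681 CPM in control, 946, 902 and 808 for mTET2-wt, 929, 1042 and 1150.1 for mTET2-R43G and 949, 621 and 838 for mTET2-R1261C. The mTET2-R43G libraries lay above control for para (log2 fold change 0.42 ± 0.15, adjusted p = 0.126), and mTET2-R1261C was spread across the range of control. Of its auxiliary subunits, the log2 fold change of mTET2-R43G against control was 0.35 ± 0.10 for Teh4 (adjusted p = 0.0669), 0.39 ± 0.19 for tipE (adjusted p = 0.248), 0.22 ± 0.09 for Teh1 (adjusted p = 0.169) and 0.05 ± 0.09 for Teh2 (adjusted p = 0.787). Shaker (Sh), the A-type potassium channel whose mutants sleep little, had 732, 626 and 629.8 CPM in control and 771, 933 and 1065 in mTET2-R43G (0.48 ± 0.14, adjusted p = 0.0821), and its beta subunit Hk 484, 429 and 425 CPM and 501, 548 and 526 (0.24 ± 0.09, adjusted p = 0.152). For Shaw, a channel open near rest, the log2 fold change was 0.24 ± 0.08 (adjusted p = 0.115), and for Shal, the A-type channel of dendrites, 0.04 ± 0.06 (adjusted p = 0.722). The group means of Shal were 169 ± 3.85, 165 ± 3.32, 174 ± 9.07 and 168 ± 8.56 CPM in control, mTET2-wt, mTET2-R43G and mTET2-R1261C.

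The relatives of eag did not pass the test in any comparison. Elk had group means from 94.1 to 111.3 CPM, and sei (seizure), the ERG-type channel whose mutants are paralysed by heat, had 60.0 ± 4.14 CPM in control and 56.0 ± 4.47 in mTET2-R43G. Elk lies 0.43 Mb from the landing site of the transgenes, the nearest of the 7 channel genes on 2R, and its log2 fold changes against control were 0.01 ± 0.09, 0.12 ± 0.09 and -0.12 ± 0.09 for mTET2-wt, mTET2-R43G and mTET2-R1261C. Among the potassium channels gated by internal ions, the same measure was 0.19 ± 0.11 for slo, the large-conductance calcium-activated channel, in mTET2-R43G (adjusted p = 0.304), 0.25 ± 0.12 for the small-conductance channel SK (adjusted p = 0.243) and 0.33 ± 0.10 for SLO2 (adjusted p = 0.0791).

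Of the other calcium channel pores, cac, which opens at synapses to release transmitter, had 936, 743 and 626 CPM in the control libraries, a spread wider than the distance between any group means (674 for mTET2-wt, 829 for mTET2-R43G and 667 for mTET2-R1261C). For mTET2-R43G against control, the log2 fold change was 0.44 ± 0.14 for the T-type pore Ca-alpha1T (adjusted p = 0.0885) and 0.21 ± 0.10 for the beta subunit Ca-beta (adjusted p = 0.221). In the NALCN complex it was 0.27 ± 0.12 for na (adjusted p = 0.211), 0.37 ± 0.12 for unc79 (adjusted p = 0.101) and 0.38 ± 0.12 for unc80 (adjusted p = 0.0828), and with mTET2-R1261C it was 0.04, -0.04 and 0.09 for the same genes. Ih was at 433 ± 14.9 CPM in control, 396 ± 13.7 for mTET2-wt, 440.1 ± 23.1 for mTET2-R43G and 387 ± 42.0 for mTET2-R1261C, with an adjusted p of at least 0.470 in each comparison with control. Of the other inward rectifiers, Irk3 had few counts and 9.11, 14.7 and 14.1 CPM in control against 7.44, 9.46 and 9.72 in mTET2-R43G (-0.51 ± 0.17, adjusted p = 0.101), and Irk1 had 5.05 to 9.23 CPM over all libraries.

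The rises in mTET2-R43G went with the length of the gene. All 16 channel genes over 20 kb had a log2 fold change above 0 (median 0.29), and of the 17 shorter ones 10 did (median 0.05). Long genes of all kinds behaved alike: the 1007 tested genes over 20 kb had a median log2 fold change of 0.22 in mTET2-R43G against control, 89.2% of them were above 0, and 52.3% had an unadjusted p under 0.05, beside 23.0% of all genes. In bins chosen after the data were seen, the 9 channel genes over 50 kb had a median of 0.42 beside 0.29 for all 313 such genes, the 7 from 20 to 50 kb 0.22 beside 0.19, and the 14 from 5 to 20 kb 0.05 beside 0.06. Across the 33 channel genes, Spearman's rho of length and log2 fold change was 0.55 in mTET2-R43G, 0.34 in mTET2-wt and 0.18 in mTET2-R1261C, a description over genes that share libraries and are not independent. Longer channel genes also have a smaller exonic share, from 8.33% for KCNQ to 87.9% for Task7, so that length and intronic reads cannot be told apart in these counts. Ork1 (13.2 kb), sand (5.25 kb) and Irk2 (5.83 kb) are short members, and stj (13.8 kb) is the one called higher among the shorter ones. Shorter genes differed in both directions: tipE, Teh4, Shaw, na, unc79 and unc80 also lay above all control libraries, without being called. An unadjusted p under 0.05 was found for 10 of the 17 shorter channel genes and 10 of the 16 longer ones. From 5 to 20 kb it was found for 8 of 14, beside 25.1% of all genes of that length.

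**Figure D5:**
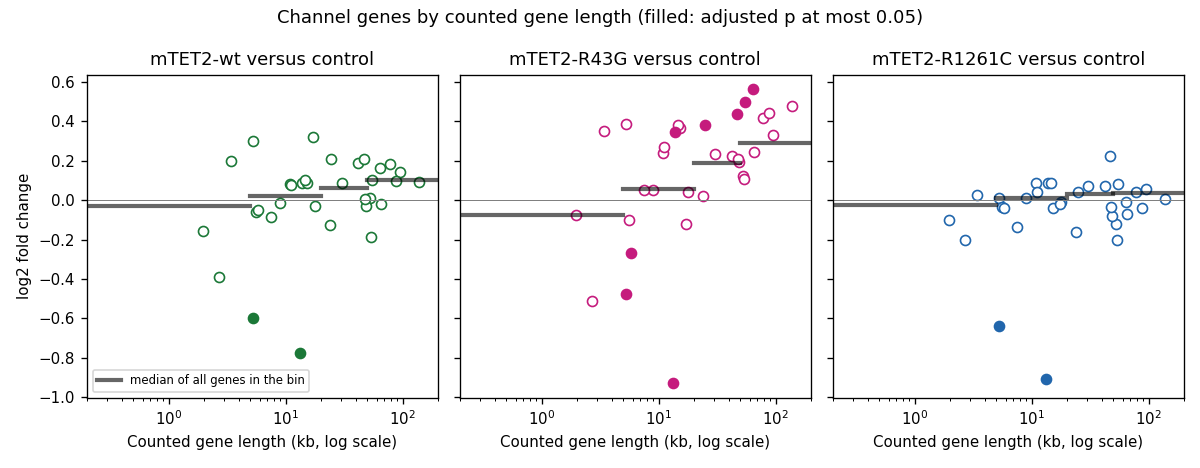
Log2 fold change against control of the 33 channel genes (circles; filled where the adjusted p was at most 0.05) by counted gene length in kb on a log axis, with thick lines for the median of all genes tested in each length bin. In mTET2-R43G the line rises to 0.29 above 50 kb and the channel genes of that length lie between 0.11 and 0.56, whereas Ork1 and sand are low in every panel.

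The same held library by library. Genes over 20 kb took 23.9% to 27.9% of counted read pairs in control, 27.3% to 27.8% in mTET2-wt, 28.1% to 31.3% in mTET2-R43G and 24.7% to 28.6% in mTET2-R1261C. Control replicate 3 had the smallest share of all and was the lowest control library for 12 of the 16 long channel genes, and mTET2-R1261C replicate 2 was the lowest of its group for 16 of 16. In mTET2-R43G, replicate 1 was the lowest for 16 of 16, with replicates 2 and 3 above it. Summed over the 33 genes, channel RNA was 7739 to 9261 CPM in control, 8329 to 8918 in mTET2-wt, 9339 to 10813 in mTET2-R43G and 6973 to 9026 in mTET2-R1261C. Neuronal markers overlapped between control (5150 to 6012 CPM) and mTET2-R43G (5677 to 6234 CPM), whereas the mTET2-wt libraries (5229.96 to 5254 CPM) were all below those of mTET2-R43G. The part of gene length in the channel results was not tested beyond these values.

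Across the 12 libraries the long channel genes varied together, and some of the shorter ones varied with them. As a description, Pearson's r of log2 levels had a median of 0.83 over the 120 pairs of channel genes longer than 20 kb and of 0.20 over the 136 pairs of shorter ones. The long pairs ran from 0.35 to 0.99 and the shorter ones from -0.71 to 0.97, the latter for stj and unc80. The short gene unc79 and the long gene SLO2 had an r of 0.93. The tightest pair was Shab and Ca-alpha1T (r = 0.99), followed by slo and SK (r = 0.98). Ork1 and sand were each other's closest match among the channel genes (r = 0.81), with the control libraries apart from the rest. The libraries share groups and the long-gene share given above, which enter all of these values.

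Compared with one another, the mTET2 groups had 0 channel genes called with edgeR in all comparisons. Of all genes, 0.145% were called for mTET2-R43G against mTET2-wt, 0.193% for mTET2-R1261C against mTET2-wt and 0.0965% for mTET2-R1261C against mTET2-R43G. An unadjusted p under 0.05 was found in the first of these for 11 of the 33 channel genes, beside 9.86% of all genes and 22.05% of those over 20 kb. In the second it was found for 1, beside 6.63% and 4.17%, and in the third for 18, beside 12.97% and 39.4%. DESeq2 called 0, 0 and 3 channel genes, beside 0.679%, 0.760% and 2.10% of the genes it gave an adjusted p. The 3 were Shab, Ca-alpha1D and Ca-alpha1T, all lower in mTET2-R1261C than in mTET2-R43G. No channel gene was a DEG here, as were 0.0804%, 0.145% and 0.0724% of all genes. Between mTET2-R43G and mTET2-wt, 28 of 33 log2 fold changes were above 0, with a median of 0.16. In this comparison 18 channel genes were higher in all mTET2-R43G libraries (9.79% of all genes) and 1 was lower (10.5%). Of the 1007 genes over 20 kb, 419 were higher in this way and 11 lower. Marker sums moved with this comparison: neuronal and photoreceptor markers were higher in mTET2-R43G than in mTET2-wt without overlap, the latter at 35644.5 to 41207 CPM against 32859 to 34532, and fat body markers were lower, at 13146 to 20534 CPM against 22849.6 to 24496. Their part in the result was not tested. Between mTET2-R1261C and mTET2-R43G the median was -0.24, with 2 separated upwards (6.65% of all genes) and 9 downwards (6.57%). Of the 1007 genes over 20 kb, 4 were separated upwards and 289 downwards there. Between mTET2-R1261C and mTET2-wt the median of the channel genes was -0.04, with 1 upwards (5.57%) and 0 downwards (5.89%). Genes over 20 kb had 17 upwards and 86 downwards. The long genes of all kinds had medians of 0.14, -0.18 and -0.05 in the same comparisons.

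A list of 35 further genes of excitability, such as channel regulators, sodium pumps, exchangers, chloride channels and the remaining tandem-pore channels, was read beside the channels. Of the 33 that passed the minimum count (Adar and CG10864 were at 0), 2 were called in mTET2-R43G, beside 4.33% of all genes. These were the tandem-pore genes CG42340 and CG42594 given above. In that comparison 26 of the 33 were above 0, beside 48.0% of all genes, and 16 had an unadjusted p under 0.05, beside 23.0%. The lowest adjusted p was 0.179 in mTET2-wt, 0.0763 in mTET2-R1261C and 0.0920 over the 4 groups. Their median log2 fold change was 0.13 in mTET2-R43G, 0.05 in mTET2-wt and 0.00 in mTET2-R1261C.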

How the data were processed

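Total RNA from fly heads was sequenced by the authors as stranded, ribosomal RNA-depleted, paired-end libraries, aligned to dm6 with HISAT2 2.1.0 (as the labels list) and counted with featureCounts 1.6.0 per the file headers (the labels list 2.0.1). The deposited counts are raw read pairs per gene over the whole gene body on the reverse strand, and pairs that overlap more than one gene were left out. Symbols came from a FlyBase name table by identifier for 17633 genes and by identical position for 61, Ca-beta among them; all 33 channel genes had identical positions in the Ensembl annotation, which gave exonic lengths. No column of sample values was unused (0).

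The test was edgeR 4.0.16 in R 4.3.3: genes with a summed count under 10 were left out, TMM factors ran from 0.959 to 1.05, and a quasi-likelihood model with a mean for each group used all 12 libraries, with Benjamini-Hochberg adjustment over 12433 genes. The fit was tested on simulated data in which genes varied independently, so that shifts shared by many genes of a library were not covered. Replicates are biological by the labels, and no pair of libraries of the same group was a duplicate, since counts of replicates differed by at least 14.1 times sampling noise (chi-square per degree of freedom). Pairs from different groups were not compared in this way. Alternatives were DESeq2 1.42.0, RLE size factors, no filter, filterByExpr, the replicate number as a block, no ribosomal RNA genes, only the libraries compared, and each library left out. Tables and figures were made in Python 3.11.15 (numpy 2.4.6, scipy 1.17.1, pandas 2.3.3, matplotlib 3.10.9). All 34 listed genes were named, further excitability genes if called against control or over the 4 groups; genes next to Ork1 and sand were chosen after their values were seen. The members and lists were chosen with earlier results of these data known.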

Additional observations from a re-analysis of the deposited data

How the results depend on the processing

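Ork1 kept its direction and its call in each comparison with control and over the 4 groups under all alternatives, and sand and the other genes called in mTET2-R43G kept their direction. The 2 calls of mTET2-wt became 1 with only the libraries compared and 1 to 2 with a library left out, and those of mTET2-R1261C 1 to 2 with a library left out. The 8 calls of mTET2-R43G became 15 with DESeq2, 1 with only the libraries compared and 1 to 6 with a library left out; RLE factors and no filter lost Irk2. DESeq2 called 3 in mTET2-R1261C against mTET2-R43G and 11 over the 4 groups (986 of 11146 genes), where leaving out a library gave 1 to 4. DEGs ranged from 0 to 1 in mTET2-R43G and mTET2-R1261C with a library left out. With a library left out the fit has fewer samples, but calls did not always fall. Over the 4 groups, 4 channel genes and 424 of all genes were called without mTET2-R1261C replicate 3, against 2 and 331 in the main fit. The causes of these changes, and of those with DESeq2, were not tested. Replicate numbers do not pair the samples: of 18 same-numbered pairs of libraries 3 had deviations correlated above 0.1, with r from -0.43 to 0.16. With the number as a replicate block the mTET2-R43G calls were 2 (Ork1 and sand), beside 223 over all genes against 538 in the main fit. The block changed no other count of channel genes called. No reads were analysed, so that intronic and exonic reads stay unseparated, and genes under another same-strand gene (Irk1, tipE, Teh3) are undercounted. Whether the 0 counts of Adar, CG10864, Syx1A and alrm arose in this way was not tested, so that nothing can be said of their levels.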
